A study of Homo sapiens with 4 samples.

Results

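The MYC, MAX and MXD network was examined in the human hepatocellular carcinoma line Huh7 after transduction with a METTL16 guide. The network was taken as the 10 rows, of 18806 in the deposited table, whose gene symbol is MYC, MYCN, MYCL, MAX, MLX, MXD1, MXI1, MXD3, MXD4 or MNT, and all 10 symbols were found. METTL16 is an RNA methyltransferase that places N6-methyladenosine on a small set of RNAs. All libraries came from a single Huh7 clone that stably expresses Cas9, so that the control group carries Cas9 and the hygromycin selection too. One group of 2 libraries received a non-targeting guide (sgNS, labelled WT) and the other group of 2 libraries received a guide against METTL16 (sgMETTL16, labelled METTL16 knockdown). The comparison asks which mRNA levels of the network differed after METTL16 depletion. The study's methods call the 2 libraries of a group biological replicates. Whether they came from separate transductions is not given in the sources used here, and p-values measure only the spread between these libraries.

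The proteins of this network share a basic helix-loop-helix leucine zipper, with which they pair and bind the E-box hexamer of DNA. MYC, MYCN and MYCL activate transcription as dimers with MAX, and favour ribosome production, nucleotide synthesis and cell division. The MXD proteins and MNT compete for MAX and recruit SIN3 and histone deacetylases, which silence the same sites. MLX is a second common partner, which pairs with MXD1, MXD4 and MNT and with the glucose sensors MondoA (MLXIP) and ChREBP (MLXIPL). MYC is a frequent driver of liver cancer.

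The E-box letters searched were CACGTG, which read the same on both strands, in RefSeq promoter windows of GRCh38.p14 that run from 250 bases before to 50 bases after a transcription start. Windows were matched for 9 members, 12 windows in all, and 3 members, MLX, MXD4 and MNT, had the hexamer. MYC had no matched window, so its promoter was not searched. It was present in 7.26% of all 35116 windows. Among genes with a window, 1186 of the 9331 genes tested (12.7%) and 32 of the 56 matched genes of a list of MYC targets (57.1%) had it in at least 1 window. The 3 member sites are printed with 1 of the 2 sites of HK2, the hexokinase gene with the largest rise among the MYC targets, to show the letters that the network's dimers read. Capitals mark the hexamer, each sequence runs 5′ to 3′ on the strand of the gene, and the whole printed stretch lies before the start.
MLX: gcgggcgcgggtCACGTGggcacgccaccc
MXD4: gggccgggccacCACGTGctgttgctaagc
MNT: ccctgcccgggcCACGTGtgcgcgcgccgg
HK2: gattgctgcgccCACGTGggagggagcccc
The MLX stretch is chr17:42567038-42567067 on the plus strand, with the hexamer starting 50 bases before the start, and the MXD4 stretch is chr4:2262330-2262359 on the minus strand, at 238 bases. The MNT stretch is chr17:2401236-2401265 on the minus strand, at 193 bases, and the HK2 stretch is chr2:74834964-74834993 on the plus strand, at 194 bases, with the other HK2 site at 149 bases. A match describes the letters of the window and is not a measured binding site.

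The values are TPM, a measure of transcript abundance, which are scaled by gene length and sum to 1000000 in each library, so that levels of different genes can be set side by side. TPM keeps no read counts, and the depth of each library is unknown. Between 11723 and 12074 genes were listed at 1 TPM or more in a library. METTL16 itself stood at 26.3 and 25.1 TPM with sgNS against 17.6 and 18.8 TPM with sgMETTL16, so the targeted gene was lower in both of its libraries (log2 fold change -0.50, standard error 0.062, limma adjusted p 2.4e-05). Of 8 markers of hepatocyte-derived cells all 8 were listed above 1 TPM in each library, and of 8 blood, endothelial and stromal markers 3 or 4 were. Those 8 summed to between 29.9 and 38.8 TPM, and were not all near 0. CD68, of macrophages, was at 3.40 and 2.72 TPM with sgNS and 8.86 and 8.57 TPM with sgMETTL16, called higher, and PECAM1, of endothelium, at 5.14 and 4.74 TPM and then 3.09 and 2.70 TPM, called lower. PDGFRA, of stroma, lay between 21.4 and 24.3 TPM and was not called, whereas PTPRC and CDH5, of blood and endothelial cells, reached at most 0.48 and 0.01 TPM. Their part in the results was not tested. The summed hepatocyte markers were 16210 and 16340 TPM with sgNS and 29530 and 29170 TPM with sgMETTL16. Most of that difference was AFP, at 1737 and 1793 TPM against 10387 and 10197 TPM, while APOB was called lower (log2 fold change -0.17). In RNA of whole cultures, fewer cells that express a gene and less of its RNA per cell cannot be told apart.

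Fold changes are on log2(TPM + 0.1), as sgMETTL16 minus sgNS, and were tested with limma over all 11971 genes whose mean reached 1 TPM, with Benjamini-Hochberg adjustment. Of the 10 members 9 passed that minimum, and MYCL did not. By limma's adjusted p at a threshold of 0.05, 5 members were higher (MYC, MAX, MXD1, MLX and MXD4), 3 were lower (MXI1, MNT and MYCN) and MXD3 was not called. Over all genes tested 75.7% were called by the same rule, 50.1% higher and 25.6% lower, so the members' counts lie near the background. The groups did not overlap in any of the 9 members tested, which was also the case for 87.4% of all genes tested. The median log2 fold change was 0.15 over the 9 members and 0.16 over all genes tested. After median-ratio scaling of the libraries, which brings the median of all genes to -0.0016, MYC was the only member called higher, and MXI1, MNT and MYCN were still called lower, when 73.0% of all genes were called, 36.4% higher and 36.5% lower. After quantile normalization MYC and MLX were called higher and the same 3 members lower, when 72.4% of all genes were called, 36.9% higher and 35.5% lower.

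**Figure D1:**
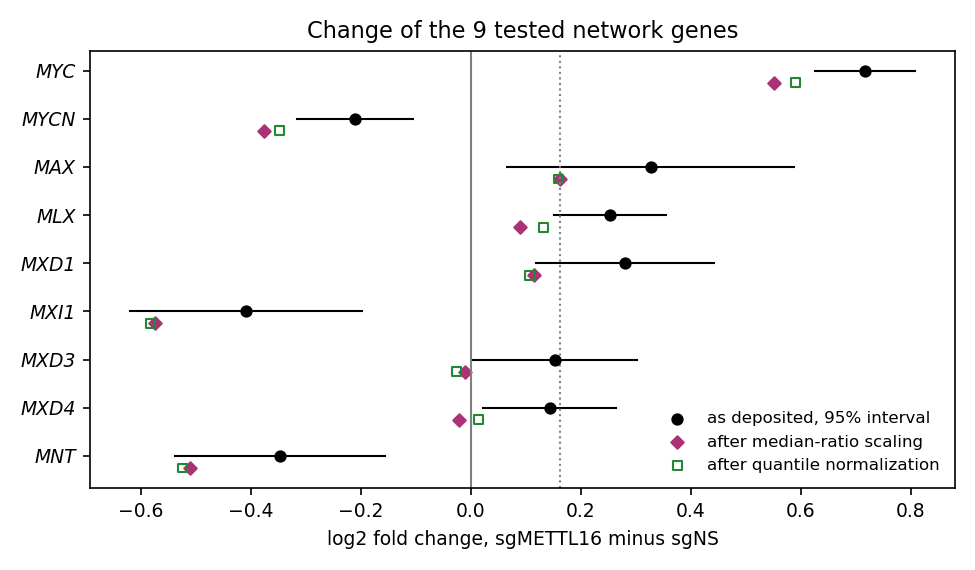
Log2 fold changes (sgMETTL16 minus sgNS, n = 2 libraries per group) of the 9 members tested. Black points with lines are the values as deposited with 95% confidence intervals from limma, and diamonds and squares are the values after median-ratio scaling and quantile normalization. The solid line is 0 and the dotted line the median of all genes at 0.16; MYC lies above both lines and MYCN, MXI1 and MNT lie below both under each scaling.

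The MYC family changed in opposite directions. MYC, with the largest log2 fold change of the 9 members tested, stood at 68.2 and 65.9 TPM with sgNS against 111.7 and 108.9 TPM with sgMETTL16. Both sgMETTL16 libraries lay far above both sgNS libraries, and the libraries of a group were close to each other. The means were 67.1 ± 1.65 and 110.3 ± 1.96 TPM (SD, n = 2 per group), a ratio of 1.65. The log2 fold change was 0.72 (95% interval 0.63 to 0.81, adjusted p of 6.5e-08 from limma), or 0.55 above the median gene. It was 0.55 after median-ratio scaling and 0.59 after quantile normalization, both past 0.05.

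MYCN, the neuronal paralog that can take the place of MYC in development, fell. Its level was 45.6 and 45.6 TPM in sgNS and 38.9 and 40.0 TPM in sgMETTL16, so that the sgNS libraries were almost equal and both sgMETTL16 libraries lay below them. The log2 fold change was -0.21 (95% interval -0.32 to -0.10, adjusted p of 0.0020 from limma), and relative to the median gene it was -0.37. MYCL, the paralog first found in lung cancer, stood at 0.55 and 0.44 TPM with sgNS against 0.96 and 0.92 TPM with sgMETTL16. All 4 values were below 1 TPM and MYCL was not tested, although its groups did not overlap. The sum of the 3 paralogs was 114.4 and 111.9 TPM in sgNS and 151.5 and 149.8 TPM in sgMETTL16. MYC made up 59.7% and 58.9% of that sum in sgNS and 73.7% and 72.7% in sgMETTL16. The ratio of MYC to MYCN, which no scaling by a single factor per library can move, was 1.50 and 1.45 in sgNS and 2.87 and 2.73 in sgMETTL16.

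**Figure D2:**
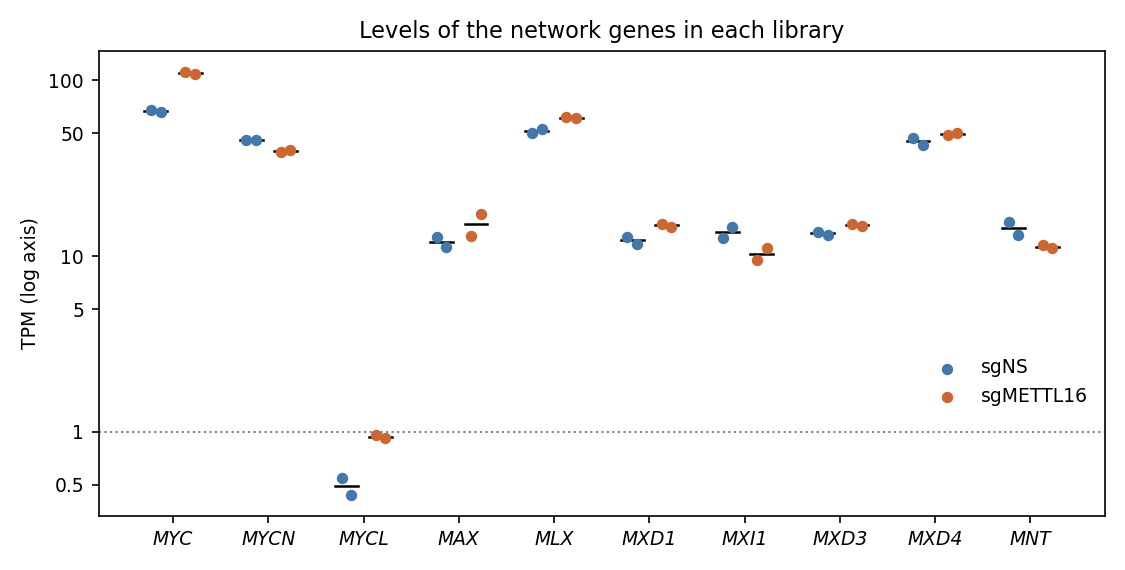
TPM (log axis) of the 10 members in each library, with blue points for sgNS, orange points for sgMETTL16 and a bar at the mean of the 2 libraries. MYC is the highest member in both groups and MYCL lies below the dotted line at 1 TPM in all 4 libraries; the 2 sgMETTL16 points of MAX lie apart, at 13.1 and 17.3 TPM.

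The shared partners MAX and MLX were both called higher in sgMETTL16, by 0.17 and 0.091 on the log2 scale above the median gene. MAX, the obligate partner of MYC, stood at 12.8 and 11.2 TPM with sgNS against 13.1 and 17.3 TPM with sgMETTL16. The lower sgMETTL16 library was barely above the higher sgNS library. The log2 fold change of 0.33 (95% interval 0.067 to 0.59, adjusted p of 0.026 from limma) rested on single libraries. Without sgMETTL16 replicate 2 it was 0.13 with an adjusted p value of 0.35, without sgNS replicate 2 it was 0.23 with 0.17, and without sgMETTL16 replicate 1 it was 0.53 with 0.0055. After median-ratio scaling it was 0.16 with an adjusted p value of 0.24 in limma.

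MLX stood at 50.2 and 52.6 TPM with sgNS against 61.6 and 61.0 TPM with sgMETTL16, a log2 change of 0.25 (95% interval 0.15 to 0.36, adjusted p of 4.3e-04 from limma). The groups were well apart. The change did not pass after median-ratio scaling (0.089, adjusted p of 0.11) and passed after quantile normalization (0.13, adjusted p of 0.026). In TPM, MLX stood above MAX in all 4 libraries. Of the glucose sensors that pair with MLX, MLXIP stood at 14.0 and 12.8 TPM with sgNS against 15.2 and 15.3 TPM with sgMETTL16 (log2 fold change 0.18, limma adjusted p 0.037). With median-ratio scaling MLXIP was at 0.020, and as deposited it did not pass without sgNS replicate 2 or without either sgMETTL16 library. MLXIPL was not analysed here.

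Of the repressor partners, MXI1 and MNT fell, MXD1 rose and the changes of MXD3 and MXD4 were close to that of the median gene. MXI1, also called MXD2, stood at 12.7 and 14.6 TPM with sgNS against 9.46 and 11.1 TPM with sgMETTL16. Both sgMETTL16 libraries were below both sgNS libraries, with a spread within each group of more than 1 TPM. The log2 fold change was -0.41 (95% interval -0.62 to -0.20, adjusted p of 0.0024 from limma), or -0.57 relative to the median gene. Without sgMETTL16 replicate 1 it was -0.30 with an adjusted p value of 0.053 in limma.

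MNT, a repressor present in most cells whether or not they divide, stood at 15.6 and 13.3 TPM with sgNS against 11.5 and 11.1 TPM with sgMETTL16. The groups did not overlap, and the sgNS libraries were farther apart than the sgMETTL16 libraries. Its log2 fold change was -0.35 (95% interval -0.54 to -0.16, adjusted p of 0.0036 from limma), or -0.51 relative to the median gene. Without sgMETTL16 replicate 2 it was -0.32 with an adjusted p value of 0.053, and without sgNS replicate 1 it was -0.23 with an adjusted p value of 0.034 in limma.

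MNT is also the nearest tested neighbour of the gene that the guide targets. On GRCh38, by GENCODE release 44, MNT lies on the minus strand of chromosome 17 from 2384073 to 2401104 and METTL16 on the same strand from 2405562 to 2511891. The end of METTL16 and the start of MNT are thus 4.46 kb apart. Among the 11 genes tested within 500 kb of METTL16, 4 were higher and 4 were lower by that threshold, and their median log2 fold change was 0.013 against 0.16 over all genes. SGSM2, the next gene beyond MNT, stood at 7.03 and 6.60 TPM with sgNS against 3.21 and 3.98 TPM with sgMETTL16 (log2 fold change -0.91, adjusted p of 4.9e-05 in limma). Farther on the same side, RTN4RL1, at 380 kb, had -0.88 and was called lower. DPH1 and OVCA2, at 362 kb, had 0.548 and 0.455 and were called higher. PAFAH1B1, the nearest tested gene on the other side at 81.3 kb, had a log2 change of 0.013 with an adjusted p value of 0.795 in limma, and its groups overlapped. The part of this position in the lower level of MNT was not tested, and the cut site of the guide is not given in the sources used here.

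**Figure D3:**
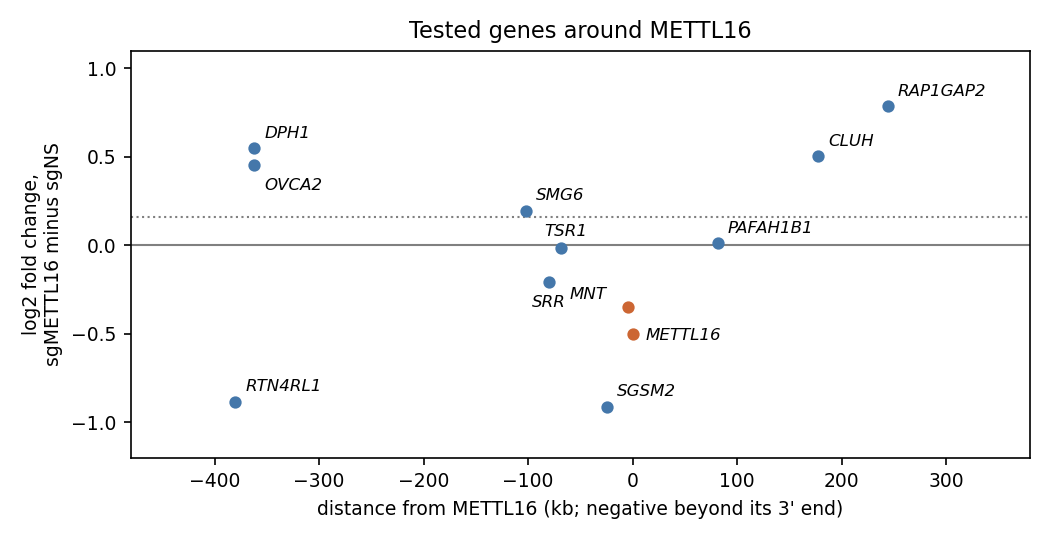
Log2 fold change (sgMETTL16 minus sgNS) of METTL16 and of the 11 genes tested within 500 kb of it, by the distance in kb from METTL16, with negative distances beyond its 3′ end. METTL16 and MNT are in orange, and the dotted line is the median of all genes at 0.16; SGSM2 and MNT, the nearest genes on the 3′ side, lie below 0, and the others lie on both sides of it.

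MXD1, the MAD gene that rises when many cell types differentiate, stood at 12.8 and 11.8 TPM with sgNS against 15.3 and 14.6 TPM with sgMETTL16. Its log2 fold change was 0.28 (95% interval 0.12 to 0.44, adjusted p of 0.0047 from limma). It did not pass after median-ratio scaling (0.12, adjusted p of 0.16), after quantile normalization (0.11, adjusted p of 0.18) or without sgMETTL16 replicate 1 (0.25, adjusted p of 0.062). The MXD1 gene overlaps SNRNP27 on the same strand, and SNRNP27 had a log2 change of 0.32 in limma (adjusted p of 3.1e-05), so reads of both genes could have been split between them.

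MXD4, the most abundant repressor of the network, stood at 47.0 and 42.8 TPM with sgNS against 48.9 and 50.3 TPM with sgMETTL16. Its log2 fold change of 0.14 (95% interval 0.023 to 0.27, adjusted p of 0.033 from limma) was -0.019 relative to the median gene. The sign turned with median-ratio scaling, to -0.021. Without sgNS replicate 2 it was 0.077 with an adjusted p value of 0.18 in limma, without sgMETTL16 replicate 1 it was 0.16 with 0.11, and without sgMETTL16 replicate 2 it was 0.13 with 0.20. MXD3, which is linked to S phase and dividing cells, stood at 13.8 and 13.3 TPM with sgNS against 15.3 and 14.8 TPM with sgMETTL16. Its log2 fold change of 0.15 had an adjusted p value of 0.059 in limma and was -0.011 after median-ratio scaling. MXD3 overlaps RAB24 on the same strand (log2 fold change 0.11, adjusted p of 0.092 in limma) and PRELID1 on the opposite strand (0.50, adjusted p of 1.1e-07).

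The 5 repressors summed to 101.9 and 95.7 TPM in sgNS and to 100.5 and 101.8 TPM in sgMETTL16, and these groups overlapped. MGA, a repressor that pairs with MAX but is not among the members, is not in this sum. It stood at 30.4 and 30.1 TPM in sgNS and was higher in sgMETTL16, at 48.1 and 47.4 TPM. The MYC family sum divided by the repressor sum was 1.12 and 1.17 in sgNS and 1.51 and 1.47 in sgMETTL16. Divided by MAX, the MYC family sum was 8.94 and 9.98 in sgNS and 11.6 and 8.64 in sgMETTL16, so that these groups overlapped, with the 2 sgMETTL16 libraries outside the range of the sgNS libraries on either side. The repressor sum divided by MAX was 7.97 and 8.53 in sgNS and 7.68 and 5.87 in sgMETTL16, without overlap. These ratios describe mRNA and not the amount of protein or of dimers.

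**Figure D4:**
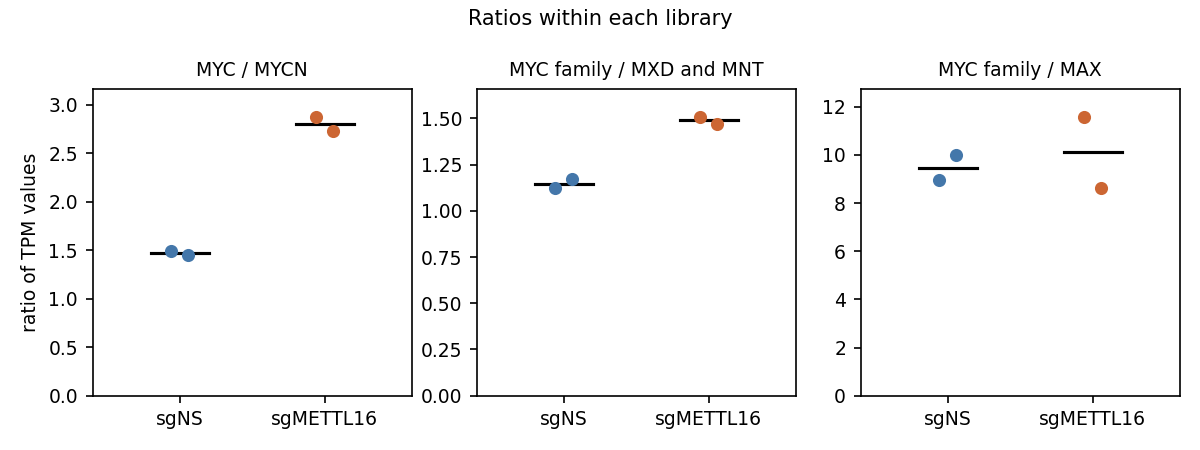
Ratios of TPM values within each library, with a bar at the mean of 2 libraries per group and axes from 0. From left to right, MYC to MYCN rises from 1.50 and 1.45 to 2.87 and 2.73, the MYC family sum to the repressor sum is 1.12 and 1.17 against 1.51 and 1.47, and the MYC family sum to MAX overlaps between the groups.

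The order of the members by level was similar in both groups. In sgNS MYC was highest, followed by MLX, by MYCN and MXD4, which did not differ beyond the spread of their libraries, and then by MNT, MXI1, MXD3, MXD1 and MAX, all at means of 14.4 TPM or less. Neighbours in that lower group overlapped, except MXD3 and MXD1. In sgMETTL16 MXD4, at a mean of 49.6 TPM, stood above MYCN, at 39.4 TPM, with no overlap. MNT and MXI1, at 11.3 and 10.3 TPM, had dropped below MAX, MXD3 and MXD1, at 15.2, 15.0 and 15.0 TPM. Of the 10 members 8 overlap another annotated gene on the opposite strand. The library kit marks strand, but whether strand was used in counting is not given in the sources used here. For MAX the protein-coding partners were FNTB (56479 bases of overlap), with a log2 change of -0.16 and an adjusted p of 0.35 in limma, and CHURC1-FNTB (55630 bases), with 0.42 and 0.012, so that the second was called higher like MAX. For MLX the partner was PSMC3IP (930 bases), with 0.54 and 1.1e-04.

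The genes around the network were described by lists written from general knowledge, each beside the 50.1% of all genes called higher, the 25.6% called lower and the median of 0.16. For counts after median-ratio scaling, 36.4% of all genes were called higher and 36.5% lower. MGA, a giant protein that pairs with MAX as a repressor, stood at 30.4 and 30.1 TPM with sgNS against 48.1 and 47.4 TPM with sgMETTL16. Its log2 fold change was 0.66 (adjusted p of 4.3e-07 from limma) and 0.49 after median-ratio scaling. Of 8 tested partners of MGA in its Polycomb complex, 2 were higher and 1 was lower. They were L3MBTL2 (log2 fold change 0.48), E2F6 (0.16, but -0.003 after median-ratio scaling) and RNF2 (-0.26). The count higher was 4 without sgNS replicate 2 and 1 without sgMETTL16 replicate 1.

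Of 67 tested genes that MYC is known to activate, 32 (47.8%) were higher, 18 (26.9%) were lower and 17 were not called, with a median log2 fold change of 0.069. After median-ratio scaling 25 were higher and 32 lower, with a median of -0.097. Of all genes 36.4% were then higher and 36.5% lower, with a median of -0.0016. The study reports, by gene set enrichment analysis in Huh7 cells, that MYC targets were significantly suppressed after METTL16 knockout. That test differs from these counts and was not rerun. HK2 rose from 32.3 and 29.3 TPM to 80.5 and 81.5 TPM, a log2 change of 1.39 (adjusted p of 3.0e-09 in limma). MYBBP1A, a nucleolar MYB-binding protein, had 0.85, and RCL1, a ribosomal RNA processing factor, had 0.76. SORD, which oxidises sorbitol, fell from 101.2 and 97.7 TPM to 46.5 and 46.0 TPM, a log2 change of -1.10 (adjusted p of 3.1e-09 in limma). MCM4, a subunit of the replicative helicase, fell by 0.87 on the log2 scale, and TBRG4, a mitochondrial RNA-binding protein, fell by 0.84. ODC1, which starts polyamine synthesis and is a textbook target, had -0.027 with an adjusted p value of 0.51 in limma and was chosen after its value was seen, as was NCL, the nucleolar protein nucleolin, with 0.15 and an adjusted p of 0.0013. After median-ratio scaling ODC1 was at -0.19 and NCL at -0.013.

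Targets with and without the E-box hexamer were then set side by side, with no test. The 31 tested targets with CACGTG in a window had a median of 0.003 on the log2 scale, 13 being higher and 5 lower, and the 24 without it had 0.078, 12 being higher and 8 lower. Over all genes tested with a window, the medians were 0.19 for the 1186 with the hexamer and 0.16 for the 8145 without. The share called higher was 51.6% and 50.6%, and the share called lower 23.8% and 25.2%. HK2, MYBBP1A and RCL1 had the hexamer in a window, TBRG4 had a window without it, and MCM4 and SORD had no matched window.

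Of 11 tested genes that MYC is known to repress, 7 (63.6%) were higher and 3 (27.3%) were lower. Their median log2 fold change was 0.44. Of all genes 50.1% were higher and 25.6% lower, with a median of 0.16. After median-ratio scaling 6 of the 11 were higher and 4 lower, with a median of 0.28. Of all genes 36.4% were then called higher and 36.5% lower. NDRG1, a differentiation and stress gene, rose from 104.4 and 100.5 TPM to 404.4 and 397.8 TPM (log2 fold change 1.97, adjusted p of 1.2e-11 in limma). CDKN1A, the cell cycle inhibitor p21, rose from 16.6 and 17.2 TPM to 46.3 and 47.6 TPM, and DDIT3, the stress factor CHOP, from 30.7 and 32.1 TPM to 72.7 and 77.8 TPM. CDKN1B, the inhibitor p27, fell by 0.28 on the log2 scale, NDRG2 fell by 0.49 and PDGFRB, at 1.65 TPM or less in each library, fell by 0.67. PDGFRB reached the minimum mean of 1 TPM only through sgNS, with a mean of 0.905 TPM in sgMETTL16. CDKN1A and CDKN1B, both inhibitors of cyclin-dependent kinases, thus changed in opposite directions. Without sgMETTL16 replicate 2, 1 gene of this list was called lower.

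Several regulators of MYC mRNA were lower, and their part in the higher level of MYC was not tested. Of 15 tested, 6 were lower (40.0%) and 2 were higher, with a median log2 fold change of -0.051. IGF2BP1, IGF2BP2 and IGF2BP3 are RNA-binding proteins that protect MYC mRNA from decay. IGF2BP1 fell from 209.6 and 202.3 TPM to 128.6 and 129.4 TPM, a log2 change of -0.67 (adjusted p of 3.5e-08 in limma). IGF2BP3 fell from 45.4 and 47.9 TPM to 24.4 and 26.3 TPM, a log2 change of -0.88 (adjusted p of 1.7e-07). IGF2BP2, named after its value was seen, fell by 0.42. HNRNPD, which binds AU-rich elements, fell by 0.53. TCF7L2, the Wnt effector that acts on the MYC promoter, rose by 0.52 and PCBP2 by 0.30. After median-ratio scaling 11 of the 15 were lower and 2 were higher.

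Among 21 tested genes for MYC protein turnover 10 were higher and 4 were lower, with a median log2 fold change of 0.14. FBXW7, the ligase subunit that marks MYC for degradation, rose from 28.1 and 29.6 TPM to 44.2 and 44.8 TPM (log2 fold change 0.63, adjusted p of 1.0e-06 in limma). USP36, a nucleolar enzyme that removes ubiquitin from MYC, rose by 0.72 and the scaffold AXIN1 by 0.50. PPP2R5A, a PP2A subunit that removes a stabilising phosphate from MYC, fell from 53.2 and 55.5 TPM to 28.5 and 29.8 TPM (log2 fold change -0.90, adjusted p of 5.7e-08 in limma). GSK3B, the kinase that primes MYC for FBXW7, fell by 0.25 and the ligase STUB1 fell by 0.29. Genes that stabilise MYC and genes that destabilise it were thus found among those higher, and after median-ratio scaling 8 of the list were higher and 9 lower.

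Of the chromatin partners, 12 of 22 tested MYC co-activators were higher and 7 were lower, with a median log2 fold change of 0.17. KAT5, the TIP60 acetyltransferase, fell from a mean of 15.75 TPM to one of 5.33 TPM (log2 fold change -1.55, adjusted p of 2.7e-08 in limma). LEO1, an elongation factor, fell by 0.61 and ACTL6A, a subunit of acetyltransferase and remodelling complexes, fell by 0.52. CREBBP, an acetyltransferase, rose by 0.69, and WDR5, which helps to place MYC on chromatin, by 0.62. ZBTB17, the MIZ1 protein through which MYC represses genes, rose by 0.64. It was counted in this list although it is not a co-activator of MYC. After median-ratio scaling 6 co-activators were higher and 8 lower. Of 17 tested parts of the SIN3 and NCOR co-repressors that MXD proteins recruit, 6 were higher and 5 were lower, with a median of 0.016. BRMS1 rose from 220.0 and 221.1 TPM to 459.0 and 464.0 TPM, a log2 change of 1.06 (adjusted p of 3.6e-10 in limma), SAP30 rose by 1.04 and ARID4A by 0.81. RBBP7 fell by 0.78, SUDS3 fell by 0.65 and RBBP4 fell by 0.25. BRMS1, SAP30, ARID4A, SUDS3, RBBP4 and RBBP7, all subunits of SIN3 complexes, were picked as the largest called changes in each direction. Of the 17 tested, 6 were not called. After median-ratio scaling 5 of the list were higher and 9 lower, and without either sgMETTL16 library 3 were lower as deposited.

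Genes on a list of MondoA and ChREBP targets changed in both directions, and whether MLX or its partners moved them was not tested. TXNIP, ARRDC4 and ARRDC3 are arrestin-fold genes, of which TXNIP and ARRDC4 are direct targets of MondoA and MLX that lower glucose uptake. TXNIP rose from 60.3 and 62.4 TPM to 122.5 and 125.5 TPM, a log2 change of 1.01 (adjusted p of 4.2e-09 in limma). ARRDC4 stood at 0.59 and 0.71 TPM with sgNS against 1.93 and 1.65 TPM with sgMETTL16, with 1.33, and ARRDC3 had 0.60. FASN and PKLR, a fatty acid synthase and a liver pyruvate kinase that ChREBP activates, fell. FASN went from 258.1 and 208.0 TPM to 91.3 and 92.4 TPM (log2 fold change -1.33, adjusted p of 5.9e-08 in limma), and PKLR from 3.10 and 2.50 TPM to 0.28 and 0.47 TPM (-2.63, adjusted p of 5.1e-06). All 5 tested genes of this list were called, 3 higher and 2 lower, where 75.7% of all genes were called. ARRDC4 and PKLR reached the minimum mean of 1 TPM only through the group in which they were high. With a minimum mean of 5 TPM, 2 genes of the list were higher and 1 was lower.

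**Figure D5:**
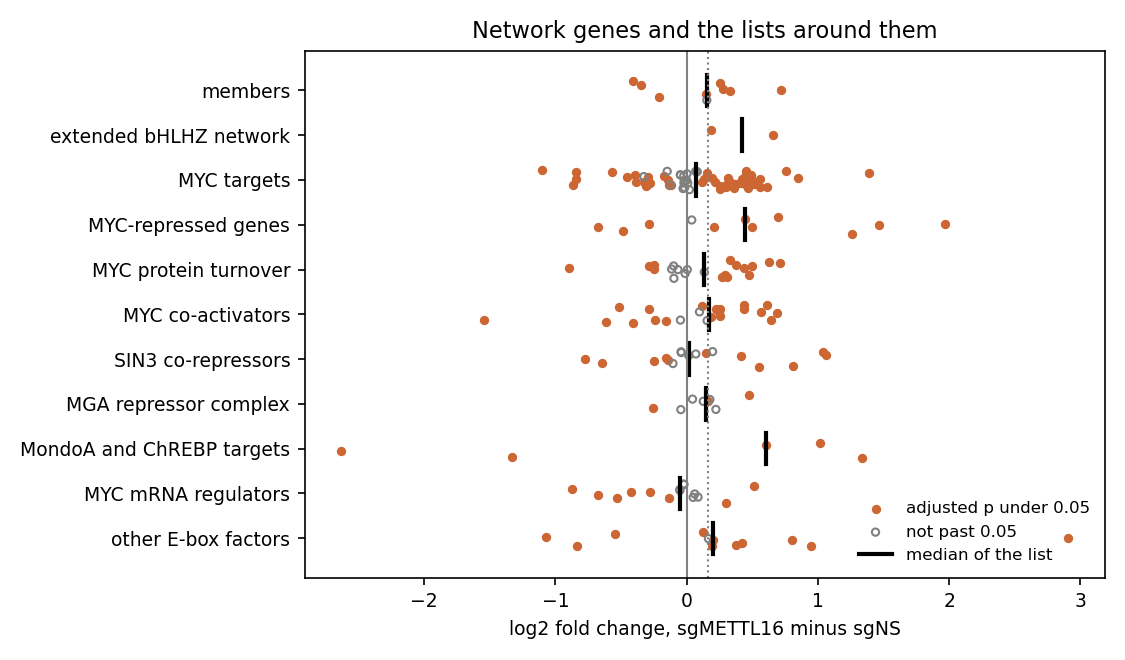
Log2 fold change (sgMETTL16 minus sgNS) of each tested gene, by list. Filled points passed an adjusted p of 0.05 in limma and open points did not, black bars are list medians, the solid line is 0 and the dotted line the median of all genes at 0.16; each list with more than 2 tested genes has points on both sides of 0, and the MYC mRNA regulators have the lowest median, at -0.051.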

How the data were processed

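RNA from 2 sgNS and 2 sgMETTL16 libraries of Huh7 cells was measured. The authors deposited 1 table of TPM values per gene symbol. Reads were trimmed with Cutadapt (study's methods), mapped to GRCh38 with STAR and quantified with RSEM (both also in the submitters' processing notes); versions, annotation and strand setting are not given in the sources used here. The methods name RPKM, but each column sums to 1000000. Columns were matched to samples by name, and no column or library was left out. TPM keeps no counts, so depth is unknown and no counting interval or count test was possible.

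From these values, log2(TPM + 0.1) was taken for 11971 genes whose mean reached 1 TPM and fitted with limma 3.58.1 in R 4.3.3 (lmFit, eBayes with trend, no block) with Benjamini-Hochberg adjustment. An exact two-sided permutation test of 2 libraries against 2 cannot go below 0.33. Positions are from GENCODE 44. Python 3.11.15, pandas 2.3.3, numpy 2.4.6 and matplotlib 3.10.9 did the rest. The members and lists were chosen with earlier results of these data known. All members, METTL16 and, from each list, up to 3 genes with the largest rise and fall at an adjusted p under 0.05 without overlap were to be named; other named genes were chosen after their values were seen, as were the ratios, the genes around METTL16 and the E-box search. The differences of list counts were not tested.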

Additional observations from a re-analysis of the deposited data

How the results depend on the processing

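With pseudocounts of 1 and 0.01, no minimum mean, a minimum mean of 5 TPM, median-ratio scaling, quantile normalization, a replicate block, limma without trend, an unmoderated linear model and each library left out, MYC stayed higher (log2 fold changes from 0.55 to 0.74) and MYCN (-0.38 to -0.19) and METTL16 (-0.69 to -0.45) stayed lower, all past an adjusted p of 0.05. MXI1 and MNT stayed lower but did not pass in the unmoderated model (adjusted p 0.148 and 0.141) or without 1 sgMETTL16 library each. MAX and MXD4 did not pass in limma without trend (adjusted p 0.122 and 0.101) or with no minimum mean (0.138 and 0.0829), and MXD3 passed in limma without trend (0.0441). Scaling turned MXD3 to -0.011 (median-ratio) and -0.025 (quantile) and MXD4 to -0.021 (median-ratio). Members higher, 5 as reported, numbered 1 with median-ratio scaling, 2 with quantile normalization, 2 in the unmoderated model and 3 to 5 with a library left out. Members lower, 3 as reported, numbered 1 in the unmoderated model and 2 to 3 with a library left out. MYC targets higher, 32 as reported, numbered 30 to 33 with a library left out, and those lower 15 to 19; an arm left with 1 library is assumed to vary like the other. With an unadjusted p under 0.01 in limma and at least a 2-fold change, 0 members were higher and 0 lower, where 11.4% of all genes passed, although all 9 had an unadjusted p under 0.05, and 1 MYC target was higher and 1 lower. MYC targets lower, 18 as reported, numbered 32 with median-ratio and 29 with quantile scaling, where 36.5% and 35.5% of all genes were called lower. Apart from the fold threshold, the cause of these shifts was not tested. Same-numbered libraries had a correlation of deviations of -0.044 across genes. A low correlation over all genes cannot tell whether same-numbered libraries shared handling. With the replicate number as a block 5 members were higher and 3 lower, and 4 genes of the MGA complex were higher in place of 2. The adjusted p of MAX in limma was then 1.3e-04 in place of 0.026, and that of MYC 5.4e-44 in place of 6.5e-08. With so few libraries, a block leaves little spread of each gene to estimate, and limma then leans on the spread shared over genes. These smaller values are therefore not stronger evidence for either gene. The unknown depth and 2 libraries per group limit all values.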

Other observations

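Other basic helix-loop-helix factors that bind E-boxes, but pair outside the network, were listed in both directions. Of 12 tested, 8 were higher and 3 lower by limma's adjusted p at a threshold of 0.05. Over all genes tested 50.1% were higher and 25.6% lower. Their median log2 fold change was 0.20 against 0.16 over all genes. After median-ratio scaling 4 of the 12 were higher and 3 lower, where 36.4% of all genes were higher and 36.5% lower. HEY1, a Notch target and repressor, stood at 1.39 and 1.17 TPM with sgNS against 10.1 and 10.3 TPM with sgMETTL16, a log2 change of 2.91 (adjusted p of 8.2e-09 in limma). BHLHE40, a clock and stress repressor, rose from 41.0 and 41.4 TPM to 79.9 and 79.5 TPM, and HES1, another Notch target, from 65.4 and 63.8 TPM to 114.1 and 112.1 TPM. TFEB, which drives lysosomal genes, fell from 9.11 and 8.07 TPM to 3.81 and 4.24 TPM, a log2 change of -1.07. The lipid regulators SREBF2 and SREBF1 fell by 0.83 and 0.55 on the log2 scale. By the rule for naming list genes these had groups without overlap, as did 87.4% of all genes tested.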
